A study of Mus musculus with 6 samples.

Results

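To describe heat shock chaperones in B cells with and without GPR174, transcript counts of 10 chaperone genes were examined in 6 libraries of cultured mouse follicular B cells. GPR174 is a G protein-coupled receptor of lymphocytes that is encoded on the X chromosome. The genes were taken as a written list of well-known chaperones, all 10 are among the 12431 genes of the count table, and all 10 were among the 10514 genes that passed a filter on low counts. For description they were split into 5 heat-inducible genes (Hspa1a, Hspa1b, Dnajb1, Hsph1 and Hsp90aa1), 3 constitutive cytosolic genes (Hspa8, Hsp90ab1 and Dnaja1) and the 2 genes of the mitochondrial chaperonin (Hspd1 and Hspe1). The WT group held 3 libraries from adult male Gpr174+/Y mice. The KO group held 3 libraries from adult male Gpr174-/Y mice, which carry a tdTomato reporter at the place of the only coding exon of Gpr174. In both groups the cells were sorted from spleen as CD21/35- CD23+ follicular B cells and kept for 1 h in complete medium with no added stimulus, so that all 6 libraries share the sort and the culture and none shows cells before culture. The number of mice was 3 per genotype.

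Chaperones bind unfolded or newly made proteins and help them to fold, to join complexes or to be degraded. The HSP70 proteins hold short stretches of unfolded chain, the J-domain proteins (DNAJ, or HSP40) bring clients to HSP70 and trigger its ATP hydrolysis, the HSP110 proteins release ADP from it, and HSP90 takes over clients such as kinases and receptors at a late stage of folding. Heat, oxidation and other stresses that unfold proteins free the transcription factor HSF1 from chaperones, and HSF1 then binds heat shock elements, which are repeats of the letters GAA on alternating strands, upstream of the inducible genes. Cells that are not stressed make little inducible HSP70 and rely on its constitutive relative HSC70.

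The sequences upstream of the genes are given first because the gene with the largest difference, Hspa1b, lies beside a near copy of itself. Hspa1a (chr17:34969190-34972156) and Hspa1b (chr17:34956436-34959238), both on the minus strand of mm10 and 9951 bases apart, encode the inducible HSP70 proteins. RefSeq promoter windows on GRCm38.p6, which run from 250 bases before to 50 bases after a transcription start, were matched by symbol for 7 of the 10 genes (12 windows, since some genes have several starts). Hspa8, Hsp90aa1 and Hsp90ab1 had no entry. The 250 bases before the start of both HSP70 genes are given in lower case, with the letters of a heat shock element of the form GAANNTTC in capitals. They lie at chr17:34972157-34972406 for Hspa1a and at chr17:34959239-34959488 for Hspa1b, and both read on the minus strand.
Hspa1a: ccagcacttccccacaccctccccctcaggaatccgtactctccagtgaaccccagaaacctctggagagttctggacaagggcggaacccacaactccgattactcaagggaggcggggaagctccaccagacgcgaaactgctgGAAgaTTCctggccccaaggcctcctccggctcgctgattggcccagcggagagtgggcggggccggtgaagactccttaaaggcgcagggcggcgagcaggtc
Hspa1b: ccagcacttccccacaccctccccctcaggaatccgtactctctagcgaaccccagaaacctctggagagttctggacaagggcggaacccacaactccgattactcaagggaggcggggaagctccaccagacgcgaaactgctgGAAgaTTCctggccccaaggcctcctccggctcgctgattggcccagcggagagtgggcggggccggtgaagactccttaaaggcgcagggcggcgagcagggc
The stretches differed at 3 of 250 bases (98.8% identity), and the full windows at 4 of 300 bases (98.7%). Counted from 1 at the 5′ end of the window, with the base of Hspa1a first, the differences were C44T, T47C and T249G before the start and C276T after it. None of these fell in the marked element, which begins 104 bases before the start in both genes.

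Elements of this kind were also found near other members. The search was for GAANNTTC and TTCNNGAA on both strands (each motif is its own reverse complement, and matches may overlap), and 7.86% and 8.52% of 32851 RefSeq promoter windows of 300 bases hold them. At least 1 of the 2 motifs was found in 15.1% of windows. The longer form, in which a match is extended by a further NNGAA or NNTTC so that the repeats number 3, was found in 0.603% of windows. Shown next, with matches in capitals, are stretches of 30 bases around matches upstream of Hsph1 (chr5:149636351-149636380, minus strand), Dnaja1 (chr4:40722333-40722362, plus strand) and Hspe1 (chr1:55088053-55088082, plus strand).
Hsph1: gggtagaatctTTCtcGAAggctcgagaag
Dnaja1: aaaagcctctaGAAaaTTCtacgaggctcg
Hspe1: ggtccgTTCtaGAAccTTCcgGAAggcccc
Relative to the first RefSeq start of the gene the stretches begin at positions -44, -135 and -95. In GENCODE they overlap exons of transcripts with other starts, of Hsph1 and Dnaja1 themselves and, for the stretch of Hspe1, of Hspd1 on the other strand. That stretch holds overlapping matches that include the longer form, and it also lies upstream of the second RefSeq start of Hspd1. The windows of Hsph1 hold the longer form as well, in a pair of overlapping matches after the start that are not printed. No match was found in the windows of Dnajb1. These matches describe letters in a window and say nothing of whether HSF1 was bound in these cells.

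The counts came from a kit that reads the 3′ ends of transcripts, so how far each gene can be told from its copies depends on its last bases. For each gene the protein-coding GENCODE transcript tagged as principal by APPRIS was used, and the longest where several or none were tagged. In its last 500 bases, 0 of 451 words of 50 bases were shared with transcripts of any other gene for both Hspa1a and Hspa1b. Of the words of their whole transcripts 60.3% and 62.3% were shared, for the most part between the pair. Reads that lie at the annotated 3′ ends can therefore be assigned to Hspa1a or Hspa1b. Reads that lie further inside cannot where they fall on shared words. Where the reads lie is not given by the counts. The last 500 bases were also free of shared words in Dnajb1, Hsph1, Hsp90aa1, Dnaja1 and Hspd1. In contrast, 81.8% of these words were shared in Hspa8, 53.2% in Hspe1 and 7.76% in Hsp90ab1, in each case with annotated copies such as Gm15459, AC117239.2 and Gm6368 (not analysed here), and the counts of those 3 genes are uncertain where reads fall on such words. Hspa1a also overlaps a gene on the opposite strand, Gm20481, as does Dnaja1 (Gm6297 and Smu1), and Hspd1 and Hspe1 overlap each other on opposite strands by 112 bases. Whether counting used the strand is not stated, so reads of such overlaps cannot be told apart.

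Total counts were between 8452460 and 10944833 per library, and the 10 genes together took 0.301% to 0.353% of them. On the first principal component (40.0% of the variance of the most variable genes) the library of WT replicate 2 stood apart, with a score of 32.5 against -8.18 to -4.33 in the other 5. The 10 chaperones were therefore also compared without it. Gpr174 itself was counted at 121 to 136 CPM (counts scaled to a library of 1000000) in WT and at 99.8 to 100.2 CPM in KO. Only the coding exon was replaced, and where along the gene the reads fell is unknown, so this gives no check of the genotype. Of the 10 listed markers of follicular B cells 9 were in the table, with a summed level of 19694 to 20171 CPM in all libraries, and 1 of these 9 passed the edgeR test, with a higher level in KO. Cr2, the gene of CD21/35, was at 981 to 1166 CPM although the label of the sort reads CD21/35-. Markers of T cells summed to 9.56 to 22.3 CPM, of marginal zone B cells to 271 to 303 CPM, of platelets to 19.8 to 33.8 CPM and of erythroid cells to 34.6 to 140 CPM, with overlap of WT and KO in each. All 3 tested of 7 listed erythroid markers had a negative log2 fold change, WT over KO (-0.94 to -0.63). Of these, 0 passed the edgeR test and 1 had an unadjusted p under 0.05. The summed markers of NK cells did not overlap between WT (8.74 to 16.9 CPM) and KO (7.55 to 8.29 CPM), with 3 tested of 8 listed, 0 past the edgeR test (1 at an unadjusted p under 0.05) and Gzmb at 0 in 3 libraries. Those of myeloid cells did not overlap either (77.1 to 99.9 CPM in WT, 71.7 to 75.9 CPM in KO), all 7 tested of 10 listed had a positive WT over KO difference and 0 passed the edgeR test (1 at an unadjusted p under 0.05). The summed plasma cell list was likewise without overlap (425 to 506 CPM in WT, 546 to 609 CPM in KO), and most of it was Irf4, a factor that activated B cells also express (log2 fold change -0.38 ± 0.07 SE, edgeR adjusted p 0.0043). In RNA from whole sorted samples, fewer cells of a type and less RNA per cell cannot be told apart. The part of these marker differences in the chaperone values was not tested.

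WT and KO B cells differed in 1 of the 10 chaperone genes. Hspa1b was higher in KO, and the other 9 genes did not pass the test. The test was the quasi-likelihood F test of edgeR, adjusted by Benjamini-Hochberg over all 10514 genes (threshold 0.05), and log2 fold changes are WT over KO, so that a negative value is higher in KO. In all, 191 genes (1.82%) passed this test in either direction and 54 (0.514%) passed it with a higher level in KO. At an unadjusted p under 0.05 there was again 1 of the 10, where 11.9% of all tested genes passed in either direction and 5.37% with a higher level in KO. The lowest KO library was above the highest WT library in 1 of the 10 genes, against 8.28% of all tested genes, and groups without overlap in either direction made up 16.7%. With 1 gene of 10, the chaperones are too few to set against these percentages. In the 6 fits that each left out a library the lowest edgeR adjusted p of the other 9 chaperone genes was 0.221, in Hspa8.

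Without WT replicate 2 the estimates were larger in size for the inducible genes other than Hsp90aa1. The log2 fold changes were then -1.002 for Hspa1a, -2.03 for Hspa1b, -0.24 for Dnajb1, -0.31 for Hsph1 and 0.00072 for Hsp90aa1. At an unadjusted p under 0.05 there were 3 of the 10, Hspa1b, Dnajb1 (unadjusted p 0.0233, edgeR adjusted p 0.339) and Hsph1 (unadjusted p 0.0466, edgeR adjusted p 0.45), where 10.9% of all tested genes passed, and Hspa1b alone passed after adjustment. The other genes were at -0.20 for Hspa8, 0.01 for Hsp90ab1, 0.10 for Dnaja1, 0.10 for Hspd1 and -0.14 for Hspe1. WT replicate 2 had the highest mean level of the inducible class in WT, so its omission lowers the WT mean of that class by construction. Without WT replicate 1, 2 of the 10 had an unadjusted edgeR p under 0.05 (1247 of 10671 tested genes), Hspa1b and Hspd1 (0.0218, higher in WT). Without WT replicate 3 there were 2 (1499 of 10799), Hspa1b and Hspa8 (0.0149, higher in KO). Without any 1 KO library there was 1.

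**Figure D1:**
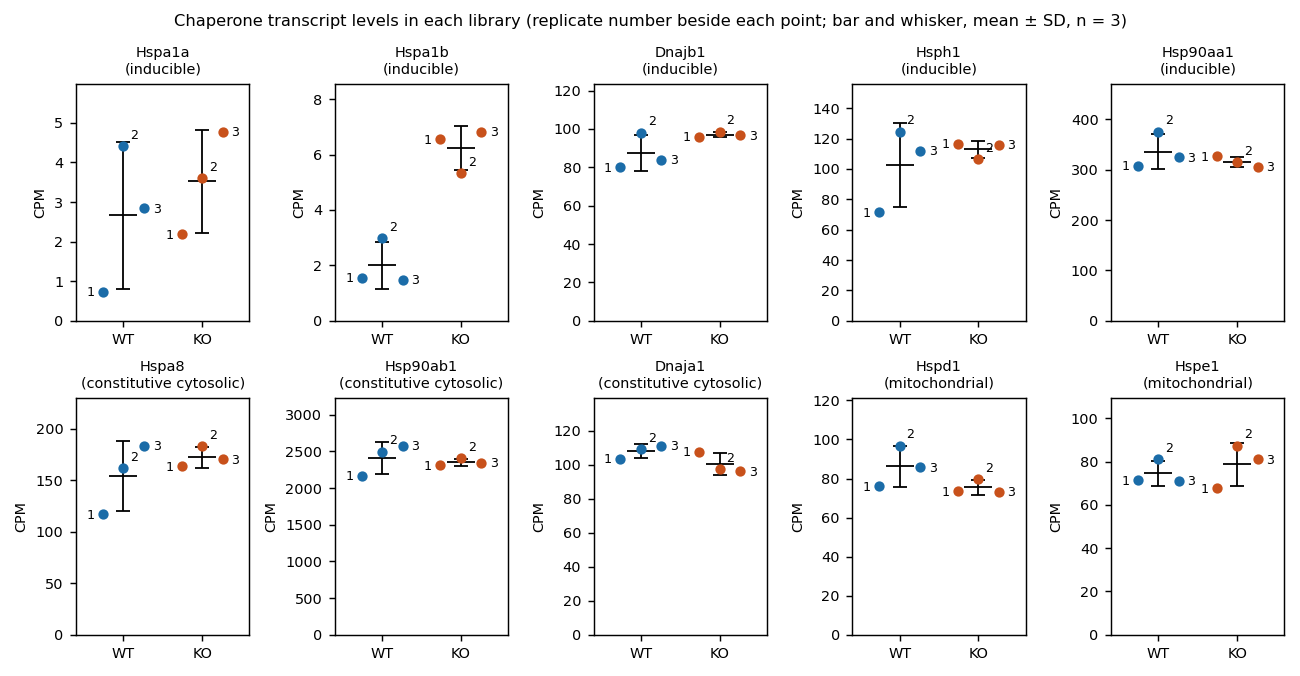
Level of each chaperone gene in each library. The y axes give CPM (from 0, a scale for each gene), points are libraries with their replicate number (WT blue, KO orange), and bars with whiskers are the mean ± SD of 3 libraries. The groups are apart in Hspa1b alone, and WT replicate 1 is the lowest point in Hspa1a, Dnajb1, Hsph1, Hspa8 and Hsp90ab1.

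Among the inducible genes, both HSP70 genes had few reads. Hspa1b was counted 17, 25 and 13 times in replicates 1, 2 and 3 of WT and 72, 49 and 70 times in those of KO, which is 1.56, 2.98 and 1.48 CPM in WT and 6.55, 5.34 and 6.82 CPM in KO. Every KO library was above every WT library. WT libraries averaged 2.00 CPM ± 0.847 (SD, n = 3) and KO libraries 6.24 CPM ± 0.789 (SD, n = 3), a ratio of 3.13. On the log2 scale the difference was -1.65 ± 0.43 (SE, 95% interval -2.53 to -0.76, edgeR adjusted p 0.0428). This call lay close to the threshold and was kept without WT replicate 2 (-2.03, edgeR adjusted p 0.00826). It was lost without WT replicate 1 (0.115), WT replicate 3 (0.118), KO replicate 1 (0.184), KO replicate 2 (0.0956) or KO replicate 3 (0.242), while the log2 fold change stayed between -2.03 and -1.48 in all 6 of these fits. DESeq2 gave a log2 fold change of -1.65 and an unadjusted p of 0.000311 but no adjusted p, because its filter on low means left this gene out.

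Hspa1a, with nearly the same upstream sequence and a near-identical product, was counted 8, 37 and 25 times in WT and 24, 33 and 49 times in KO. The levels were 0.732, 4.41 and 2.84 CPM in WT and 2.18, 3.60 and 4.78 CPM in KO. These values overlapped widely, with WT replicate 1 lowest and KO replicate 3 highest. The log2 fold change of -0.42 ± 0.56 (SE, 95% interval -1.57 to 0.73) did not pass the test (edgeR adjusted p 0.834), and its interval reaches from a level higher in KO by more than 1 log2 unit to a level higher in WT. Leaving out 1 library moved the estimate both ways, to 0.04 without WT replicate 1 and to -1.002 without WT replicate 2.

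That Hspa1b passed and Hspa1a did not was set against the split of reads within the pair. Hspa1b made up 68.0%, 40.3% and 34.2% of the reads of the pair in WT and 75.0%, 59.8% and 58.8% in KO. The exact (Clopper-Pearson) 95% binomial intervals, which cover counting error only, ran from 46.5% to 85.1% in WT replicate 1 and from 19.6% to 51.4% in WT replicate 3. The shares of WT and KO therefore overlapped, and a difference between the responses of the genes was not shown. With the counts of the pair summed, WT libraries held 25, 62 and 38 reads and KO libraries held 96, 82 and 119. The summed levels were 2.29, 7.39 and 4.31 CPM in WT and 8.74, 8.94 and 11.6 CPM in KO, again without overlap. The sum averaged 4.66 CPM ± 2.57 (SD, n = 3) over WT and 9.76 CPM ± 1.598 (SD, n = 3) over KO libraries, 2.12 times higher in KO, and its log2 fold change was -1.08 ± 0.34 (SE, unadjusted p 0.00415, edgeR adjusted p 0.129). The sum did not pass the test.

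Dnajb1 encodes the J-domain partner of inducible HSP70. Its levels were 80.1, 98.0 and 84.0 CPM in WT and 95.9, 98.6 and 96.7 CPM in KO. The KO libraries lay within a narrow range, and WT replicate 2 fell inside it while the other 2 WT libraries were lower. Its log2 fold change was -0.15 ± 0.10 (SE, 95% interval -0.36 to 0.05, edgeR adjusted p 0.598).

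Hsph1, which encodes HSP110, a nucleotide exchange factor of HSP70, was at 71.4, 124 and 112 CPM in WT and 116, 106 and 116 CPM in KO. WT replicate 1 stood below the other 5 libraries, which lay close together. Its log2 fold change was -0.14 ± 0.17 (SE, 95% interval -0.53 to 0.24, edgeR adjusted p 0.82), and it was 0.07 without WT replicate 1 and -0.31 without WT replicate 2.

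Hsp90aa1, the stress-inducible cytosolic HSP90, was at 308, 376 and 325 CPM in WT and 326, 316 and 306 CPM in KO. Its direction was opposite to that of the other 4 inducible genes, and the groups overlapped. Its log2 fold change was 0.09 ± 0.08 (SE, 95% interval -0.07 to 0.24, edgeR adjusted p 0.725), so a difference above 0.24 on the log2 scale lies outside the interval.

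**Figure D2:**
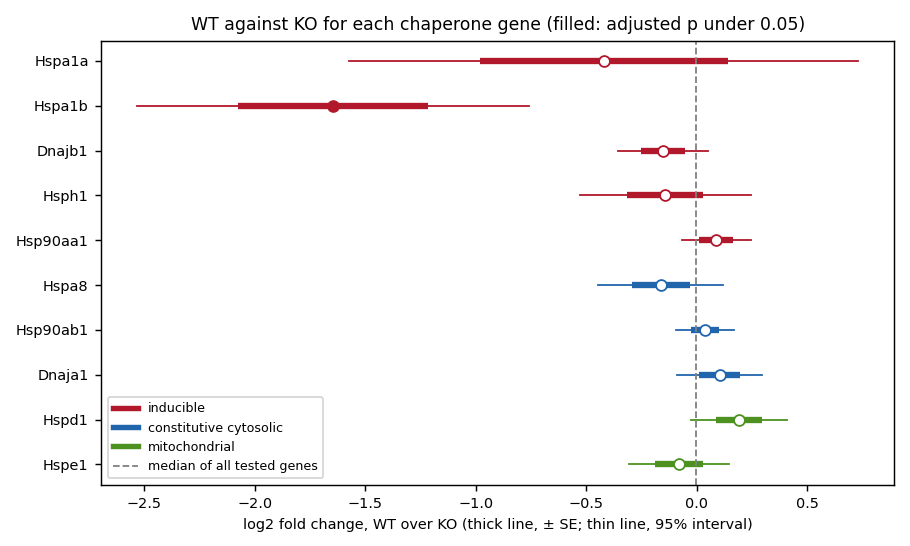
Log2 fold change (x axis, WT over KO) of each chaperone gene, with thick lines for ± SE and thin lines for the 95% interval of the edgeR fit on 3 against 3 libraries, coloured by class. Hspa1b at -1.65 is the filled point and the only interval clear of 0, and the intervals of Hspa1a and Hspa1b are much wider than those of the other 8 genes.

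None of the 3 constitutive cytosolic genes passed the test. Hspa8 encodes HSC70, the HSP70 of unstressed cells, and was at 117, 162 and 184 CPM in WT and 164, 183 and 170.3 CPM in KO. Here too WT replicate 1 was the lowest library, and WT replicate 3 was the highest. The log2 fold change of Hspa8 was -0.16 ± 0.13 (SE, 95% interval -0.44 to 0.12, edgeR adjusted p 0.703), and it was 0.005 without WT replicate 1. Hsp90ab1, the constitutive HSP90, had the most reads of the 10 genes, at 2168, 2496 and 2578 CPM in WT and 2310.1, 2403 and 2347 CPM in KO. All KO values lay inside the range of WT. Its log2 fold change was 0.04 ± 0.06 (SE, 95% interval -0.09 to 0.17, edgeR adjusted p 0.881). Dnaja1 encodes a J-domain partner of HSC70 and was at 104, 109 and 111 CPM in WT and 108, 97.4 and 96.2 CPM in KO. KO replicate 1 fell among the WT values and the other 2 KO libraries below them. The log2 fold change of Dnaja1 was 0.10 ± 0.09 (SE, 95% interval -0.09 to 0.29, edgeR adjusted p 0.739).

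The mitochondrial chaperonin is built from HSP60 (Hspd1), which forms the folding chamber, and HSP10 (Hspe1), which forms its lid. Both genes are transcribed outward from a shared region on chromosome 1 whose sequence is given with that of Hspe1. Hspd1 was at 75.9, 96.8 and 85.8 CPM in WT and 73.4, 79.6 and 73.3 CPM in KO. Its KO values were at the low end of WT, with KO replicate 2 above WT replicate 1. The log2 fold change of Hspd1 was 0.19 ± 0.11 (SE, 95% interval -0.03 to 0.41, unadjusted p 0.0826, edgeR adjusted p 0.505). Hspe1 was at 71.4, 81.0 and 71.1 CPM in WT and 67.7, 87.3 and 81.1 CPM in KO. Replicate 2 was the highest library in each genotype for this gene and for Hspd1, and the groups overlapped. The log2 fold change of Hspe1 was -0.08 ± 0.11 (SE, 95% interval -0.31 to 0.15, edgeR adjusted p 0.841), opposite in sign to Hspd1. The reads of Hspe1 per read of Hspd1 were 0.940, 0.836 and 0.828 in WT and 0.923, 1.097 and 1.11 in KO, with overlap.

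The inducible and constitutive classes were contrasted by medians and by ratios within each library. These are descriptions with no test of the lists. Among the 7 genes with promoter windows the matches did not separate the classes, since Dnaja1, Hspd1 and Hspe1 had matches and the inducible Dnajb1 had none. The matches of Dnaja1 and Hspd1 were each found at some of their starts only, and Hspd1 and Hspe1 share a stretch. Hsp90aa1, Hspa8 and Hsp90ab1 were not searched. A window without a match does not show that a gene lacks heat shock elements. The median log2 fold change was -0.15 for the 5 inducible genes, of which 4 were negative, and 0.04 for the 5 constitutive and mitochondrial genes, of which 2 were negative. Over all tested genes it was -0.003. Without WT replicate 1 the inducible median was 0.04 and the constitutive median 0.11, and without WT replicate 2 they were -0.31 and 0.01. The inducible median was negative in each fit that kept WT replicate 1.

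The mean deviation of a class was taken as the log2 CPM of each gene minus its mean over the 6 libraries, averaged over the class. For the inducible class it was -0.71, 0.20 and -0.22 in WT and 0.16, 0.21 and 0.37 in KO, in the order of the replicate numbers. WT replicate 2 lay among the KO libraries. For the constitutive and mitochondrial class it was -0.16, 0.10 and 0.08 in WT and -0.06, 0.06 and -0.02 in KO, a narrower range in which WT replicate 1 was again lowest. Both classes had the lowest value in the same library. The inducible values rested on the HSP70 pair, which has few reads. In WT replicate 1 the mean deviation was -1.35 for Hspa1a and Hspa1b and -0.28 for the other 3 inducible genes, smaller in size than that of the constitutive Hspa8 (-0.46). Those 3 genes were at 0.18 and -0.02 in WT replicates 2 and 3 and between 0.02 and 0.07 in KO, so that KO lay within the range of WT.

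**Figure D3:**
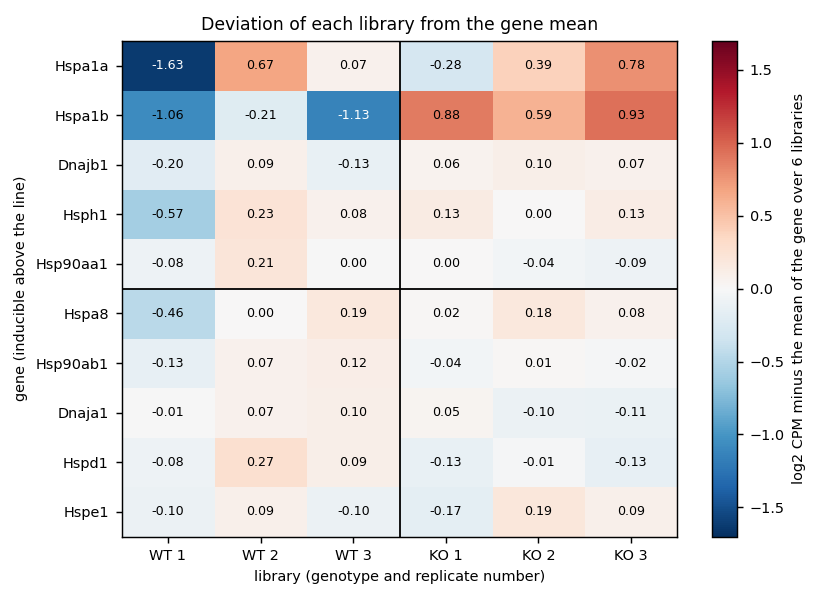
Log2 CPM of each gene in each library minus the mean of that gene over the 6 libraries (colour and printed value, red above and blue below), with inducible genes above the horizontal line and WT left of the vertical line. The column of WT replicate 1 is at or below 0 for all 10 genes and lowest for Hspa1a at -1.63, while the row of Dnaja1 runs from -0.11 to 0.10.

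Ratios of an inducible gene to its constitutive counterpart do not depend on the total count of the library. The reads of Hspa1a and Hspa1b together per read of Hspa8 were 0.0195, 0.0457 and 0.0235 in WT and 0.0534, 0.0488 and 0.0681 in KO. The groups did not overlap, but KO replicate 2 exceeded WT replicate 2 by little. The reads of Dnajb1 per read of Dnaja1 were 0.773, 0.898 and 0.755 in WT and 0.890, 1.01 and 1.01 in KO, and KO replicate 1 lay below WT replicate 2. The means of that ratio were 0.809 ± 0.0781 (SD, n = 3) in WT and 0.969 ± 0.0685 (SD, n = 3) in KO. Within the HSP90 pair no such gap was seen, and the reads of Hsp90aa1 per read of Hsp90ab1 were 0.142, 0.1504 and 0.126 in WT and 0.141, 0.131 and 0.130 in KO. The reads of Hsph1 per read of Hspa8 were 0.610, 0.770 and 0.610 in WT and 0.712, 0.581 and 0.681 in KO, also with overlap. The low value of Hsph1 in WT replicate 1 was thus matched by a low value of Hspa8 in the same library.

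The genes differed widely in their spread between replicates. The SD of log2 CPM within genotypes was 0.93 for Hspa1a, at the 96.6th percentile of all tested genes, and 0.39 for Hspa1b (78.9th). Counting error alone gives about 0.30 and 0.26 at these counts, so it makes up a larger part of the spread of Hspa1b than of Hspa1a. For Hsph1 and Hspa8 the SD was 0.31 (71.0th percentile) and 0.24 (61.8th), where counting error gives 0.05 and 0.04. The other 6 genes lay below the 40th percentile, from 0.15 for Hspe1 (39.0th) to 0.07 for Dnaja1 (9.05th). The median was 0.31 over the inducible genes, 0.13 over the constitutive and mitochondrial genes and 0.19 over all tested genes.

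The spread was larger in WT than in KO for 8 of the 10 genes and for 5 of 5 inducible genes, against 59.2% of all tested genes. The SD of log2 CPM was 1.19 in WT and 0.54 in KO for Hspa1a, 0.51 and 0.18 for Hspa1b, 0.43 and 0.07 for Hsph1, and 0.33 and 0.08 for Hspa8. Hspa1b was counted 13 to 25 times in WT and 49 to 72 times in KO. Counting error on the log2 scale is larger at lower counts, so a larger SD of Hspa1b in WT follows in part from its lower counts there. The size of that part was not tested. For Dnajb1 the KO libraries differed by even less than counting error gives on average (SD 0.02 against 0.05), as can happen with 3 values. The exceptions were Dnaja1 (0.05 in WT, 0.09 in KO) and Hspe1 (0.11 in WT, 0.19 in KO). No test of unequal spread was made, and with 3 libraries a group an SD is itself a rough value.

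**Figure D4:**
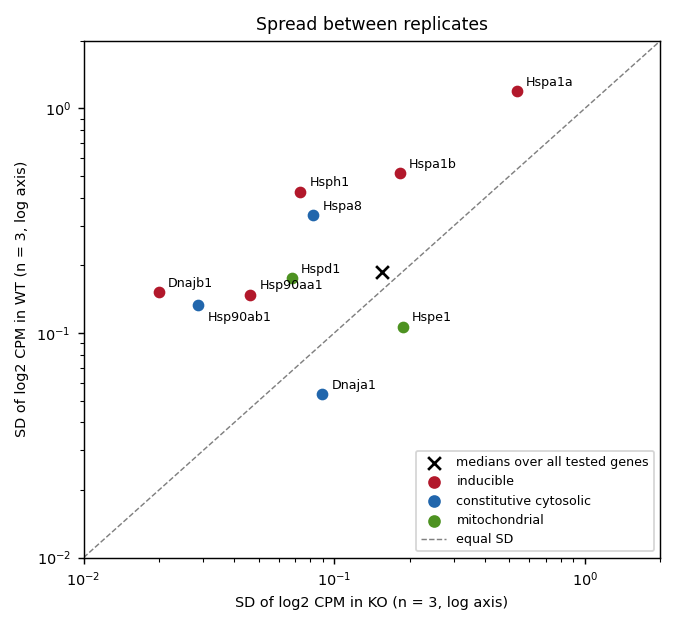
SD of log2 CPM over the 3 KO libraries (x axis, log scale) and over the 3 WT libraries (y axis, log scale) for each chaperone gene, coloured by class, with the medians over all tested genes as a cross and equality as a dashed line. The 5 inducible genes lie above the line, as do Hspa8, Hsp90ab1 and Hspd1, and Dnaja1 and Hspe1 lie below it.

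WT replicate 1 was the lowest of the 6 libraries in 5 of the 10 genes, namely Hspa1a, Dnajb1, Hsph1, Hspa8 and Hsp90ab1, while it was the lowest in 17.1% of all tested genes. Against the mean of the other 5 libraries it was lower by 1.96 log2 units in Hspa1a, at the 0.295th percentile of all tested genes. The difference was -1.28 in Hspa1b (1.07th percentile), -0.69 in Hsph1 (4.06th), -0.56 in Hspa8 (5.95th) and -0.24 in Dnajb1 (17.2th). In Hsp90ab1, Hspe1, Hspd1, Hsp90aa1 and Dnaja1 it was between -0.16 and -0.01. The median difference of this library was 0.01 over all tested genes and -0.01 over 68 related chaperone genes. The scaling of the libraries keeps the first value near 0, so it cannot show whether the library was low in general. Its total of 10876607 counts was among the higher ones. Its summed myeloid markers (99.9 CPM) were the highest of the 6 libraries and its Irf4 level (331 CPM) the lowest. The part of either in its chaperone values was not tested.

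Among the related lists, WT replicate 1 was the lowest library in 10 of 15 HSP90 relatives and cochaperones, in 2 of 20 HSP40 relatives and in 2 of 10 HSP70 and HSP110 relatives. It was also the lowest in 3 of 8 subunits of the cytosolic chaperonin TRiC, of which 1 was above the mean of the other libraries. For HSP70 cochaperones it was the lowest in 2 of 9, for heat shock factors and regulators in 1 of 3 and for small heat shock proteins in 1 of 3. Against the mean of the other libraries the median difference in WT replicate 1 was -0.21 log2 units over the 15 HSP90 relatives and cochaperones. Of these 15, 4 were above that mean, namely Hsp90b1, Fkbp5, Ppid and Unc45a. The genes named next were picked after their values were seen. Chordc1, which binds HSP90, was at 61.4, 73.1 and 105 CPM in WT and 87.8, 78.1 and 89.4 CPM in KO. Stip1 links HSP70 to HSP90 and was at 108, 155 and 150.1 CPM in WT and 140.3, 124 and 137 CPM in KO. Ahsa1, an activator of the HSP90 ATPase, and Fkbp4, a peptidyl-prolyl isomerase that binds HSP90, were 0.36 and 0.24 log2 units below the mean of the other libraries there. None of Chordc1, Stip1, Ahsa1 and Fkbp4 passed the edgeR test of WT against KO.

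The wider chaperone network was described by 7 lists of 80 genes, of which 74 were in the table and 68 were tested. Of these, 1 passed the test with a higher level in WT and 1 with a higher level in KO, and the median log2 fold change was 0.004. Over all 10514 tested genes 1.82% passed in either direction and 0.514% passed with a higher level in KO. Both related genes that passed belong to the HSP40 relatives. Dnajb5, a J-domain protein of the same subfamily as Dnajb1, was at 27.9, 47.2 and 39.7 CPM in WT and 24.7, 22.2 and 19.8 CPM in KO. It was higher in every WT library than in any KO library (log2 fold change 0.78 ± 0.17 SE, edgeR adjusted p 0.0138). The call was lost without WT replicate 2 (0.0954), WT replicate 3 (0.0767), KO replicate 2 (0.0729) or KO replicate 3 (0.141). Dnajc7, which binds both HSP70 and HSP90, was at 150.2, 165 and 166 CPM in WT and 199, 231 and 188 CPM in KO. It was higher in every KO library (log2 fold change -0.36 ± 0.09 SE, edgeR adjusted p 0.0198). The call was lost without WT replicate 1 (0.105), WT replicate 3 (0.0524), KO replicate 1 (0.058) or KO replicate 2 (0.221). The other 18 of the 20 tested HSP40 relatives did not pass.

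In the other 6 lists 0 genes passed by edgeR, and 4 genes had an unadjusted p under 0.05 with a higher level in WT and 1 with a higher level in KO. Over all tested genes 11.9% had such a p in either direction and 5.37% with a higher level in KO. Among 3 tested heat shock factors and regulators, Hsf1, the master factor of the response, had the lowest p (log2 fold change 0.13 ± 0.14 SE, edgeR adjusted p 0.792). Its level was 34.2 to 45.3 CPM in WT and 34.7 to 38.8 CPM in KO. Among 10 HSP70 and HSP110 relatives, Hspa4 was at 364, 305 and 369 CPM in WT and 297, 295 and 295 CPM in KO (log2 fold change 0.23 ± 0.08 SE, edgeR adjusted p 0.164), and the adjusted p was 0.019 without WT replicate 2. Among 15 HSP90 relatives and cochaperones, Hsp90b1, the HSP90 of the endoplasmic reticulum, was at 827, 907 and 889 CPM in WT and 709, 801 and 757 CPM in KO (log2 fold change 0.21 ± 0.07 SE, edgeR adjusted p 0.115). DESeq2 gave an adjusted p of 0.047 for it. Among 8 subunits of the cytosolic chaperonin TRiC, Cct6a was at 23.7, 31.5 and 20.5 CPM in WT and 16.02, 17.2 and 14.8 CPM in KO (log2 fold change 0.65 ± 0.19 SE, edgeR adjusted p 0.0836). The other 7 subunits had log2 fold changes from -0.07 to 0.12. Among 9 HSP70 cochaperones, Hspbp1, a nucleotide exchange factor of HSP70, differed by -0.36 ± 0.14 (log2, SE) at an edgeR adjusted p of 0.249. Among 3 small heat shock proteins, Hspb1 was near the limit of counting at 0.0910 to 1.46 CPM (edgeR adjusted p 0.791). Bag3, a further inducible target of HSF1 that was picked after its values were seen, had 66 counts over all libraries and did not pass the filter on low counts.

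**Figure D5:**
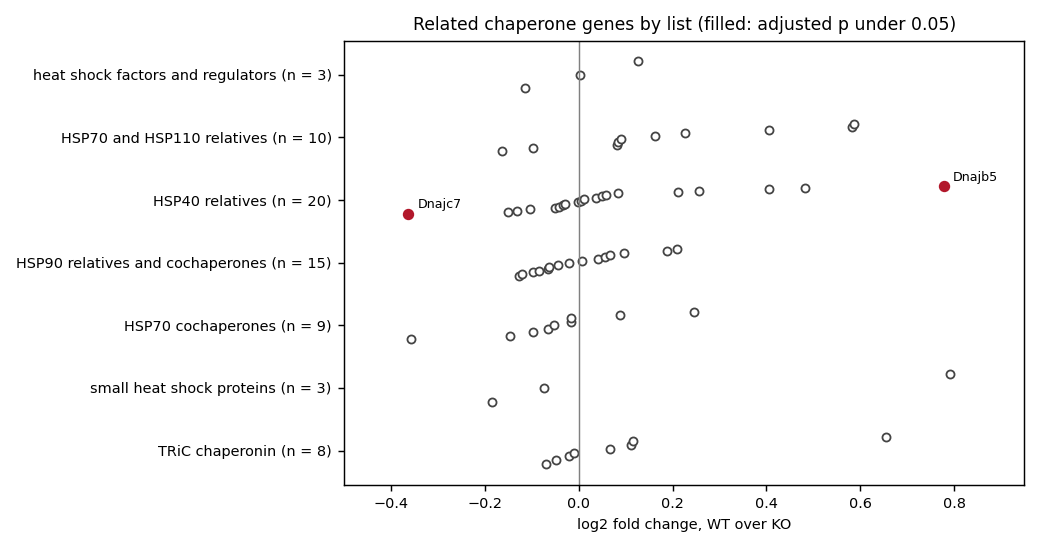
Log2 fold change (x axis, WT over KO, edgeR) of each of 68 related chaperone genes, by list with the number tested, filled where the edgeR adjusted p was under 0.05. Dnajb5 at 0.78 and Dnajc7 at -0.36 are the filled points, and most genes of every list lie within 0.2 of 0.

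Genes whose pattern over the 6 libraries was most like that of a class were ranked by Pearson's r with the mean standardised log2 CPM of the class, among the 8546 genes that averaged 50 counts or more. For the inducible class they were Timm13 (r = 0.995), Dhx33 (0.981), Lage3 (0.981), Phf1 (0.978) and Sugp2 (0.971). Timm13, a small import chaperone of the mitochondrial intermembrane space, was at 56.1, 73.2 and 63.1 CPM in WT and 68.8, 68.6 and 71.3 CPM in KO, with the lowest value in WT replicate 1. For the constitutive and mitochondrial class they were Zeb1 (0.992), Zxda (0.985), Ttc33 (0.984), Ikzf3 (0.978) and Srrt (0.972). Zeb1, a zinc finger transcription factor, was at 65.9, 83.4 and 83.1 CPM in WT and 70.3, 78.9 and 71.7 CPM in KO. None of these 10 genes passed the edgeR test. With 6 points and so many candidates high values arise easily, all points share libraries and depth, and 70 genes exceeded 0.9 for each class.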

How the data were processed

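RNA of sorted splenic follicular B cells of male mice was sequenced after culture for 1 h, in 3 libraries per genotype that were grouped by their titles. According to the methods and the submitters' processing notes, the authors made libraries with a 3′ end kit, aligned single-end reads of 50 bases to mm10 with STAR, counted them per gene with HTSeq and tested them with DESeq2. Tool versions, annotation and strand use are not given in the sources used here. The deposited values are unnormalized whole-number counts for each gene and library. The smallest total of a gene was 10 counts, rows without a gene name numbered 0, and unused sample columns numbered 0. Depth was 8452460 to 10944833 counts per library, molecular identifiers are not mentioned in the methods, and intervals on counts cover counting error only. Pairs of libraries of 1 genotype differed by a chi-square per degree of freedom of 6.89 to 10.9, so none was a copy.

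Genes were filtered with filterByExpr, scaled with TMM factors and compared with the robust quasi-likelihood F test of edgeR (version 4.0.16, R 4.3.3), two-sided, with Benjamini-Hochberg adjustment over 10514 genes. The standard error is the absolute log2 fold change over the square root of F, and the interval uses the degrees of freedom of the fit. CPM is counts scaled to a library of 1000000 by the TMM-scaled total, and log2 CPM has a prior count of 2. Alternatives were DESeq2 (1.42.0), limma-voom (limma 3.58.1), RLE or upper-quartile factors, unscaled totals, testing all genes or those averaging 50 counts or more, ordinary dispersions, the replicate number as a block, Hspa1a and Hspa1b summed, omission of the 50 most abundant genes and omission of each library in turn. The code was tested on simulated counts. Gene positions and transcripts are from GENCODE M21 and promoter windows from RefSeq.

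The 10 genes, the lists and the alternatives were chosen with earlier results of these data known. The genes named are all 10 chaperones, from 7 related lists each gene called or else the gene with the lowest p, and the 5 genes most correlated with each class. Genes named outside this rule, among them Bag3, the markers Cr2, Gzmb and Irf4, and the HSP90 cochaperones, were chosen after their values were seen. Of the related lists, Hsf4, Hspa12b, Hspb2, Hspb8, Cryab and Serpinh1 are not among the genes of the count table and so have no value here.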

Additional observations from a re-analysis of the deposited data

How the results depend on the processing

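Hspa1b was the only result among the 10 chaperones whose side of the threshold changed. The number of chaperones called was 0 under DESeq2, whose filter left Hspa1b without an adjusted p (DESeq2 unadjusted p 0.000311). It was also 0 under limma-voom (adjusted p 0.0593), ordinary dispersions (adjusted p 0.0555) and summed counts of the pair. A mean of at least 50 counts, which removed Hspa1a and Hspa1b from the test, gave 0 as well. With a library left out the number was 0 to 1. It was 1 under the other alternatives. Without WT replicate 1 the log2 fold changes of Hspa1a (0.044), Hsph1 (0.067) and Hspa8 (0.0045) changed sign, and without WT replicate 3 that of Hsp90ab1 did (-0.015). With a library left out they ranged from -1.002 for Hspa1a, -0.31 for Hsph1 and -0.31 for Hspa8 up to those values, and from -0.015 to 0.11 for Hsp90ab1. None of these passed a test before or after, and the cause was not tested. The number of related chaperone genes called was 0 to 2 with a library left out and 2 to 3 otherwise. All genes called numbered 191, 91 to 183 with a library left out (113 without KO replicate 2, 91 without KO replicate 3) and 170 to 281 otherwise. The inducible median lay between -0.31 and 0.04 with a library left out and between -0.20 and -0.14 otherwise.

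Replicate numbers are shared by WT and KO libraries, but nothing says that they mark litters or days. Deviations of libraries with the same number correlated at 0.0498, 0.0136 and 0.0432 over genes, under the 0.1 set for a pairing, although every library correlated best with its own number. With the replicate number as a block, 281 genes, 1 chaperone (Hspa1b, log2 fold change -1.68, edgeR adjusted p 0.0447) and 3 related genes (with Hsp90b1 at 0.0462) were called, the inducible median was -0.17 and the constitutive median 0.03. At 8 to 72 reads per library, the depth limits what can be said of Hspa1a and Hspa1b.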

Other observations

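Of the 68 related chaperone genes tested, 7 had an unadjusted edgeR p under 0.05 with a higher level in WT and 2 with a higher level in KO. Over all 10514 tested genes the numbers were 683 and 565. That is 11.9% in either direction and 5.37% with a higher level in KO. The genes given here were singled out after their values were seen. Dnajb9, a J-domain cochaperone of the endoplasmic reticulum, was at 26.5, 42.0 and 34.7 CPM in WT and 21.9, 24.4 and 27.4 CPM in KO (log2 fold change 0.48 ± 0.17 SE, edgeR adjusted p 0.196). KO replicate 3 lay above WT replicate 1. Dnajb2 was at 56.6, 65.2 and 57.7 CPM in WT and 45.2, 43.9 and 46.3 CPM in KO, without overlap (log2 fold change 0.40 ± 0.12 SE, edgeR adjusted p 0.077). Hspa4l, a relative of HSP110, differed by 0.59 ± 0.22 (log2, SE) at an edgeR adjusted p of 0.229. Hspa5, the HSP70 of the endoplasmic reticulum, had no such p and was at 1532 to 1865 CPM in WT and 1548 to 1672 CPM in KO, with overlap (log2 fold change 0.09 ± 0.07, edgeR adjusted p 0.665). None of these 4 genes passed the edgeR test after adjustment.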
